A study of Mus musculus with 9 samples.

Results

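The translation initiation factors (Eif genes) and elongation factors (Eef genes) were followed across 3 groups of CD11b+ mouse spleen cells. Members were the probe sets of the Affymetrix MG-U74Av2 array whose single gene symbol in the platform annotation starts with Eif or Eef and a digit, without the eIF2 kinases (Eif2ak genes). The rule gave 62 of 12488 probe sets, for 45 genes, of which 14 had more than 1 probe set. Of the 62, 50 probe sets of 40 genes were bright enough to enter the tests. All cells were sorted for CD11b, an integrin of myeloid cells, and the spleen donors were female mice of 8 to 12 weeks. The cultured group (3 arrays) came from tumor-bearing mice and spent 24 h in complete medium, the fresh group (3 arrays) came from tumor-bearing mice and was not cultured, and the tumor-free group (3 arrays) came from mice without a tumor and was not cultured either. The labels name neither the tumor nor the mouse strain, and do not say whether replicates are separate mice. The p-values therefore cover the spread among the arrays alone, and that spread may be technical.

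Translation of most mRNAs starts when eIF4E binds the 5′ cap and, with the scaffold eIF4G and the RNA helicase eIF4A, forms the eIF4F complex, which recruits the small ribosomal subunit carrying eIF3 and the initiator tRNA bound to eIF2. The subunit scans to the start codon with eIF1 and eIF1A, eIF5 triggers GTP hydrolysis on eIF2, eIF5B joins the large subunit, and eIF2B reloads eIF2 with GTP. In elongation eEF1A delivers aminoacyl-tRNA, the eEF1B subunits recharge it, and eEF2 moves the ribosome along. The steps are controlled in part by proteins that bind or modify the factors, such as the 4E-BPs, which hold eIF4E, and eEF2 kinase, so that mRNA levels give only one side of the control.

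Promoter stretches of 8 factor genes are printed here because the results turn on 7 of them (the paralogs Eif4a2 and Eif4a1, and Eif4g3, Eif3a, Eif3m, Eif5b and Eif3j1), and because Eef2 shows both motifs searched, as do Eif3f and Eif3k, which are not printed. They are taken from RefSeq (GRCm38.p6), read 5′ to 3′ in the direction of the gene, from 60 bases before to 30 bases after the annotated start. Capitals mark the letters CACGTG, an E-box, which reads the same on both strands and is bound by MYC among other factors, and any unbroken run of at least 7 bases C or T within the first 30 transcribed bases. mRNAs of elongation factors and ribosomal proteins are known to begin with a pyrimidine tract, the TOP motif. The run searched here may lie anywhere in those 30 bases, and in Eef2 it began at base 15, so it is not a TOP motif as such. The longest run was 8 bases in Eef2 and 11 in Eef1a2, but 5 in Eef1a1 and 4 in Eef1b2.
Eif4a2 (chr16:23107408-23107497, plus strand): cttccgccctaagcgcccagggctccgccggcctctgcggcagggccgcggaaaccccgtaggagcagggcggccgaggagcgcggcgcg
Eif4a1 (chr11:69672394-69672483, minus strand): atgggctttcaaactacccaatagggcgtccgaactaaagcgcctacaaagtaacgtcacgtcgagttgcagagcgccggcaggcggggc
Eif4g3 (chr4:137993395-137993484, plus strand): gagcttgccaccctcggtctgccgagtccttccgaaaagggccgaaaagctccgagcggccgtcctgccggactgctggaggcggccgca
Eif3a (chr19:60790664-60790753, minus strand): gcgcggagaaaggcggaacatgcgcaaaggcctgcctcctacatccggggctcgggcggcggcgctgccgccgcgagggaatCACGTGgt
Eif3m (chr2:105016998-105017087, minus strand): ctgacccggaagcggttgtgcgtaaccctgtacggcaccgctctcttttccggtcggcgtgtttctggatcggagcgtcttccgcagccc
Eif5b (chr1:37997950-37998039, plus strand): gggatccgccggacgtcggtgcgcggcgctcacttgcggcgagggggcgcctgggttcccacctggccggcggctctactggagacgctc
Eif3j1 (chr2:122028520-122028609, plus strand): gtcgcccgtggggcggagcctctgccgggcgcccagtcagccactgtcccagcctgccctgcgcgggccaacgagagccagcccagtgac
Eef2 (chr10:81176571-81176660, plus strand): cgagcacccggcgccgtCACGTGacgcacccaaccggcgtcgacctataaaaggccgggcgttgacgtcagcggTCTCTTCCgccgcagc

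Of the 45 factor genes 37 had a promoter of 300 bases in the RefSeq table. CACGTG was in 8 of these (21.6%), against 7.24% of the 27025 promoters of all genes, taking 1 per gene. The 8 genes were Eef2, Eef2k, Eif1b, Eif3a, Eif3f, Eif3k, Eif4a1 and Eif4h. In Eif4a1 the E-box began 189 bases before the start, outside the printed stretch, and in Eif3a it began at base 23 after it. The C or T run was in 10 of 37 factor genes (27.0%) and in 16.3% of all promoters. These shares are descriptions of letters, and the factor promoters were not matched to the others in base composition. Neither motif was in the printed stretch of Eif4a2, Eif4a1, Eif4g3, Eif3m, Eif5b or Eif3j1.

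Each array gave 1 MAS5 signal per probe set, an intensity on a linear scale, and the arrays were on one scale as deposited. Log2 fold changes are on the log2(signal + 7.83) scale, which understates changes of dim genes, and were tested with limma over 8695 probe sets with Benjamini-Hochberg adjustment (threshold 0.05). The sort marker Itgam had a signal of 243.8 to 954 on the 9 arrays. Every group held a close pair and 1 array that stood apart: cultured 3 (lowest r with its pair 0.85, against 0.929 within the pair), fresh 3 (0.874 against 0.949) and tumor-free 1 (0.823 against 0.957). The same arrays differed from their pairs in the bacterial spike-in signal and in the 3′/5′ ratio of beta-actin. The ratio was 2.57 on tumor-free 1 and 1.16 on cultured 3, against 0.994 and 1.19 on the other tumor-free arrays and 2.27 and 2.36 on the other cultured ones. In the fresh group it differed less, at 1.351 on fresh 3 against 1.595 and 1.582. Arrays were therefore also split at the median spike-in signal into a high class (tumor-free 1, fresh 1 and 2, cultured 1 and 2) and a low class (the other 4). Genes are compared between groups only, never with each other in level.

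No factor probe set passed limma's test in any of the 3 comparisons. In fresh against tumor-free cells 0 of 50 were called, where 1.9% of all tested probe sets were. In cultured against fresh cells 0 of 50 were called, against 2.69% of all, and in cultured against tumor-free cells 0 of 50, against 1.23%. At an unadjusted p below 0.05 there were 6 factor probe sets in fresh against tumor-free cells (1 higher and 5 lower). Over all tested probe sets the share was 16.7%, with 7% higher and 9.66% lower. In cultured against fresh cells there were 8 (5 higher and 3 lower), against 16.3% of all, with 10.1% higher and 6.19% lower. In cultured against tumor-free cells there were 5 (1 higher and 4 lower), against 14.1% of all, with 7.28% higher and 6.82% lower. The factors' shares of 12%, 16% and 10% thus lay below or near those of all probe sets. Under other settings the number called after adjustment reached 17, 10 and 8, all with array weights. That setting also called 3174, 1902 and 1389 of all 8695 tested probe sets.

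The changes were small around 0. The median log2 fold change of the factors was -0.09 in fresh against tumor-free cells (0.01 over all tested probe sets), 0.13 in cultured against fresh cells (0.02 over all) and -0.04 in cultured against tumor-free cells (0.05 over all). Changes beyond 1 on the log2 scale in either direction were seen for 2, 3 and 4 of the 50 factor probe sets, which is 4%, 6% and 8%, whereas 11.7%, 11.6% and 9.99% of all tested probe sets exceeded 1. The factors also varied somewhat less within groups, with a median within-group SD of 0.34 against 0.43 over all, and their median log2 level was 6.67, against 6.32 over all. The 95% interval of the difference lay wholly between -1 and 1 for 18, 25 and 28 of the 50 in the 3 comparisons (31.9%, 34.8% and 36% of all probe sets). With the offset added, a 2-fold change in the signal of a dim probe set is less than 1 on this scale. Such an interval therefore does not exclude a 2-fold change for dim probe sets. For the others a change of 1 on this scale was not resolved with 3 arrays per group.

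**Figure D1:**
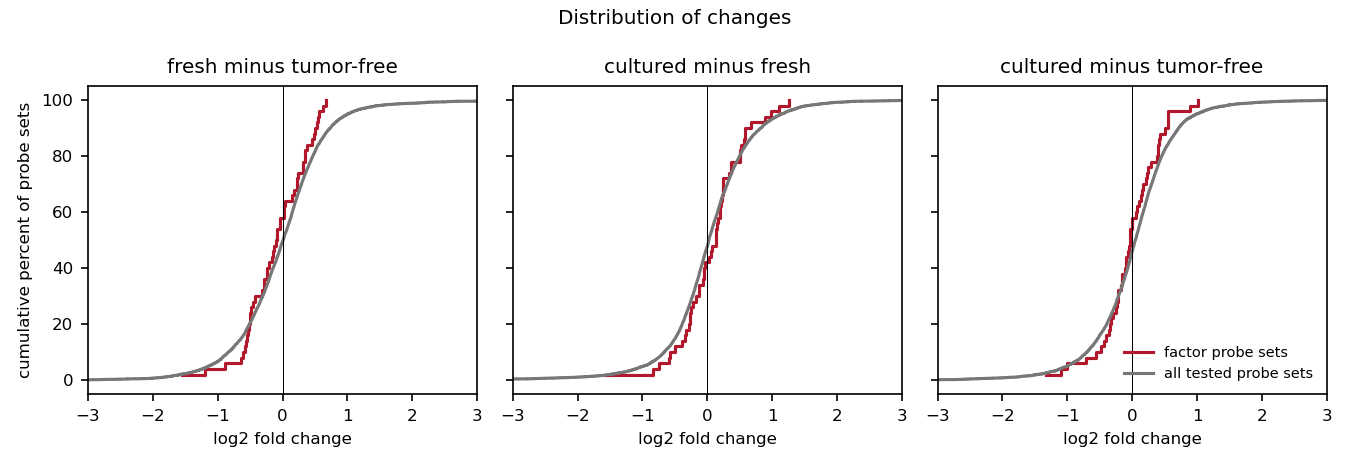
Cumulative percent of probe sets (vertical) by log2 fold change (horizontal) for the 50 factor probe sets (red) and all 8695 tested probe sets (gray), 1 panel per comparison. The factor curves cross 50% near the curve of all probe sets, at -0.09, 0.13 and -0.04, and have shorter tails. Changes of all probe sets beyond 3 in either direction are outside the panels.

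**Figure D2:**
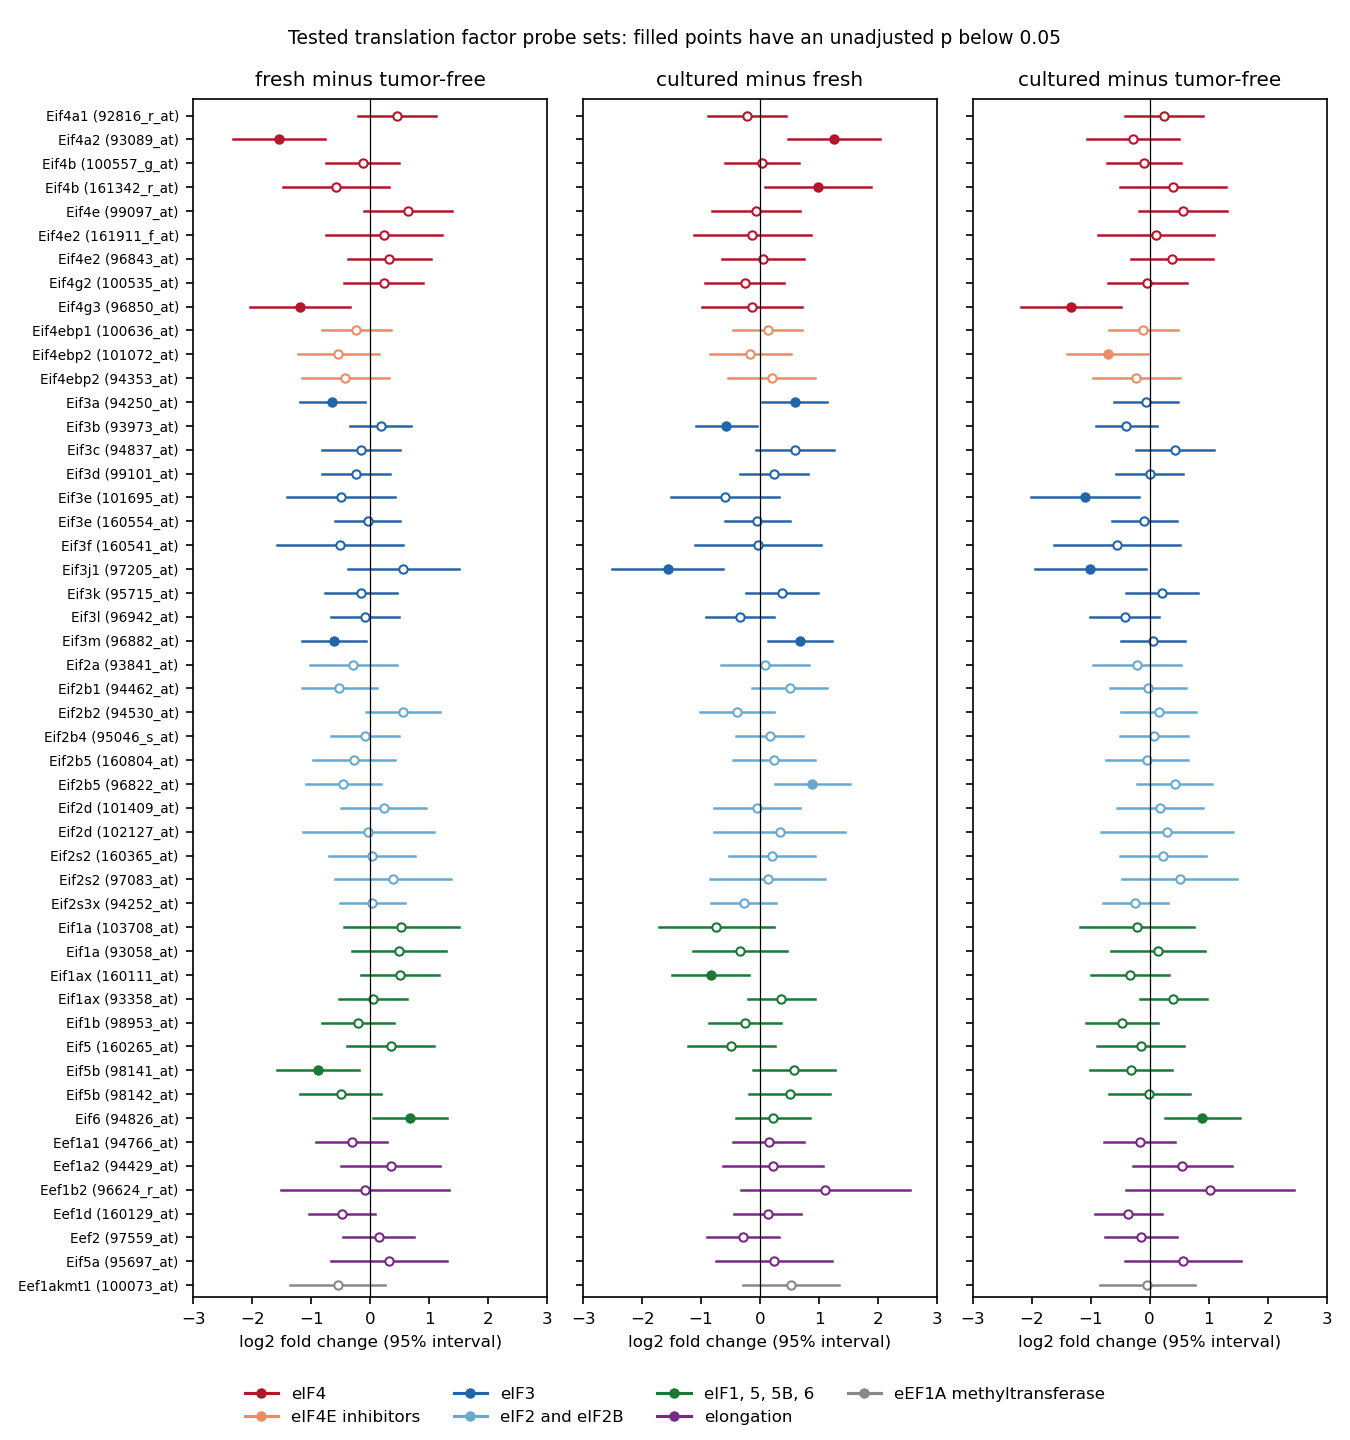
Log2 fold change (horizontal, point) with its 95% interval (line) of each of the 50 tested factor probe sets, grouped by role through color, in the 3 comparisons. Filled points have an unadjusted p below 0.05 (6, 8 and 5 probe sets), and no point has an adjusted p below 0.05.

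In the cap-binding machinery the helicase gene Eif4a2 had the difference with the smallest p among the 50 tested factor probe sets. Its signal was 245, 183 and 542 in fresh cells, against 741, 848 and 1022 in tumor-free cells, a log2 fold change of -1.55 ± 0.35 (SE, limma adjusted p = 0.0562). The groups did not overlap, and fresh 3 lay nearest to the tumor-free arrays. In cultured cells the signal was 655, 773 and 692, each above all 3 fresh arrays, a log2 fold change of 1.26 ± 0.35 over fresh cells (limma adjusted p = 0.0911). Both comparisons use the same fresh arrays, so they are not separate evidence. Set against tumor-free cells directly, the cultured cells overlapped with them in signal (log2 fold change -0.29, 95% interval -1.07 to 0.49).

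Whether the differences of Eif4a2 passed the threshold changed with the setting and with single arrays. Without fresh 3 the log2 fold changes were -1.99 (adjusted p = 0.00608) in fresh against tumor-free cells and 1.70 (adjusted p = 0.0131) in cultured against fresh cells. Without tumor-free 1 the first was -1.65 (adjusted p = 0.0275). Within the high spike-in class the 2 differences were -1.77 and 1.71, and within the low class, where fresh 3 is the only fresh array, they were -0.77 and 0.35. Blocking on the class gave -1.37 (adjusted p = 0.0435) and 1.26 (adjusted p = 0.0339). Over the 24 alternatives the first ranged from -1.99 to -0.77 (adjusted p from 8.67e-05 to 0.630) and the second from 0.35 to 1.71 (adjusted p from 0.000750 to 0.680).

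**Figure D3:**
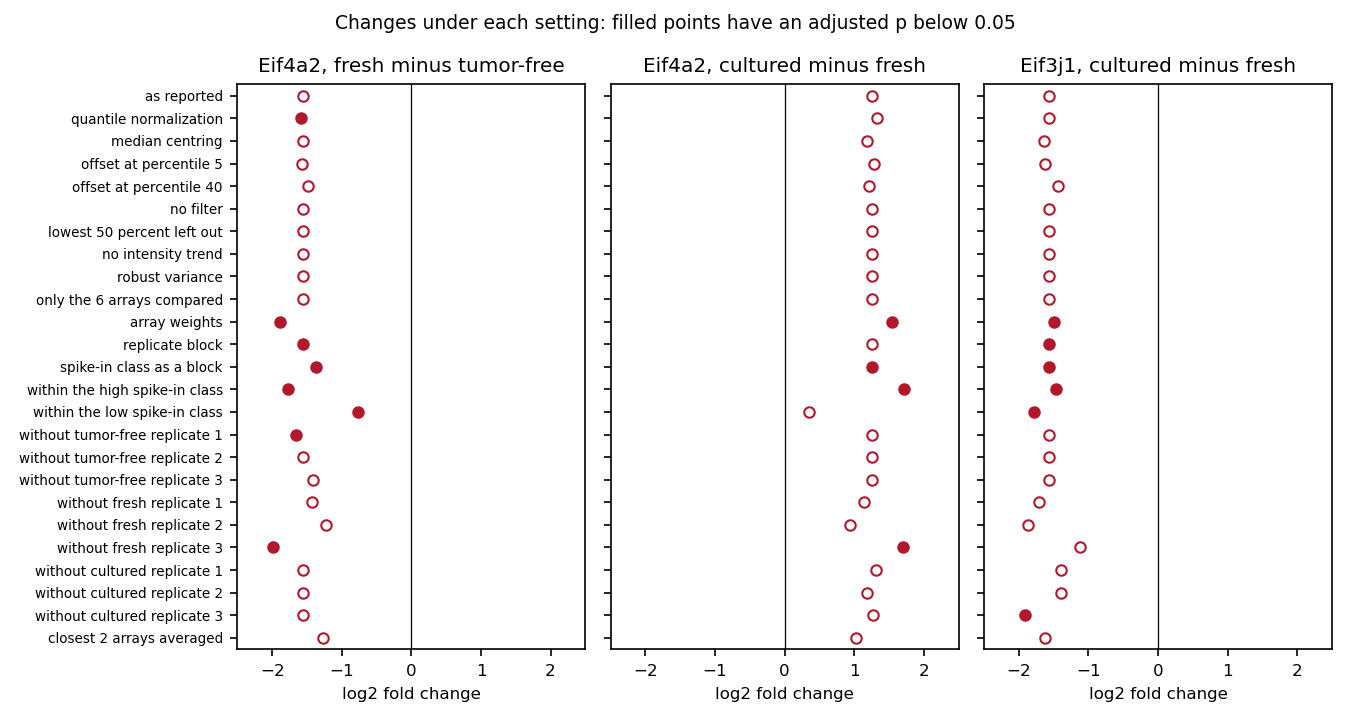
Log2 fold change (horizontal) of Eif4a2 in fresh against tumor-free and cultured against fresh cells and of Eif3j1 in cultured against fresh cells, as reported and under the 24 alternatives (vertical). Filled points have an adjusted p below 0.05. Every point of a panel lies on 1 side of 0, and 8, 4 and 6 of the alternatives pass the threshold.

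Eif4a1, which encodes the closely related helicase, had signals of 218, 281 and 159 in cultured cells and 267, 233 and 249 in fresh cells, against 269, 141 and 152 in tumor-free cells. The groups overlapped, with log2 fold changes of 0.46 (95% interval -0.21 to 1.12) in fresh against tumor-free and -0.21 (-0.88 to 0.45) in cultured against fresh cells, in both cases with the sign opposite to Eif4a2. Whether the paralogs differ in their response was not tested. The single Eif4a1 probe set bears the suffix _r_at, which marks probes that do not meet all of the manufacturer's selection rules.

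The scaffold gene Eif4g3 was at 51.8, 74.6 and 96.7 in fresh cells, against 107, 222 and 228 in tumor-free cells (log2 fold change -1.20 ± 0.38 SE, limma adjusted p = 0.144). Cultured cells, at 43.0, 102 and 62.2, also lay below every tumor-free array (-1.33 ± 0.38, adjusted p = 0.141). Tumor-free 1 was the lowest of its group and close to the tumor-bearing arrays. Without it the 2 differences were -1.54 (adjusted p = 0.0300) and -1.67 (adjusted p = 0.0235), so that both passed the threshold. Over the alternatives they ranged from -1.78 to -0.71 (adjusted p up to 0.757) and from -1.73 to -0.62 (adjusted p up to 0.825). The other scaffold-like gene measured, Eif4g2, whose protein lacks the eIF4E site, read 60.7, 59.8 and 61.7 in cultured cells and 57.5, 56.8 and 123 in fresh cells, against 58.4, 63.2 and 66.0 in tumor-free cells. Only fresh 3 stood out. Eif4g2 had log2 fold changes of 0.22 in fresh against tumor-free cells and -0.04 in cultured against tumor-free cells, both with intervals across 0.

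Eif4e, the cap-binding protein itself, was dim in every group. Its tested probe set read 20.3, 22.6 and 16.9 in fresh cells and 28.4, 16.9 and 12.6 in cultured cells, against 8.54, 12.5 and 9.42 in tumor-free cells, without overlap between either tumor-bearing group and the tumor-free one, though cultured 3 and tumor-free 2 nearly met. The log2 fold changes were 0.63 (limma adjusted p = 0.366) for fresh cells and 0.56 (adjusted p = 0.509) for cultured cells. A second Eif4e probe set, too dim to be tested, was also higher on every tumor-bearing array than on any tumor-free one, at 19.4, 18.7 and 14.7 in cultured cells, 12.8, 7.0 and 7.2 in fresh cells and 2.51, 3.76 and 4.1 in tumor-free cells. Unlike the tested one, it also separated cultured from fresh cells. Its tumor-free values lay below the offset of 7.83, so no fold change is given. In a fit without the filter the limma adjusted p was 0.0516 for cultured and 0.313 for fresh against tumor-free cells. It was 0.269 for cultured against fresh cells. This second Eif4e probe set bears the suffix _r_at. The cap-binding relative Eif4e2 read 129, 89.6 and 82.0 in cultured cells and 116.5, 119.6 and 59.5 in fresh cells, against 72.5, 62.2 and 89.2 in tumor-free cells, with overlapping groups. Its other probe set lay between -0.13 and 0.23 on the log2 scale in the 3 comparisons, also with overlap.

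Eif4b, a cofactor of the eIF4A helicase, gave different values by probe set. One read 197, 219 and 63.2 in cultured cells, against 75.2, 50.6 and 80.3 in fresh cells (log2 fold change 0.98 ± 0.41 SE, limma adjusted p = 0.255), and its low value on cultured 3 made the groups overlap. Tumor-free cells read 103, 120.2 and 94.2, all above the fresh ones. Without cultured 3 the difference was 1.52 (adjusted p = 0.0166), whereas within the low spike-in class it was -0.31, and the adjusted p over the alternatives ran from 0.00739 to 0.911. The brighter Eif4b probe set was at 0.03 in the same comparison (95% interval -0.59 to 0.65). Only the first of these Eif4b probe sets bears the suffix _r_at.

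Among the genes whose products restrain eIF4E, the 4E-BP gene Eif4ebp2 had signals of 248, 269.6 and 184 in cultured cells and 237, 263 and 283 in fresh cells, against 234, 527 and 454 in tumor-free cells. Tumor-free 2 and 3 were the high arrays, and tumor-free 1 was as low as the tumor-bearing ones. The log2 fold change of cultured against tumor-free cells was -0.71 ± 0.31 (SE, adjusted p = 0.334), and -1.06 without tumor-free 1 (adjusted p = 0.0325). Within the high spike-in class, where tumor-free 1 is the only tumor-free array, it was 0.14, and the adjusted p over the alternatives ran from 1.94e-06 to 0.999. A further tested Eif4ebp2 probe set was at -0.23. Eif4ebp1, of the same family, read 141, 98.9 and 112 in cultured cells and 116, 87.5 and 115 in fresh cells, against 164, 117 and 104 in tumor-free cells. Its groups overlapped, with log2 fold changes between -0.24 and 0.13 in the 3 comparisons.

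**Figure D4:**
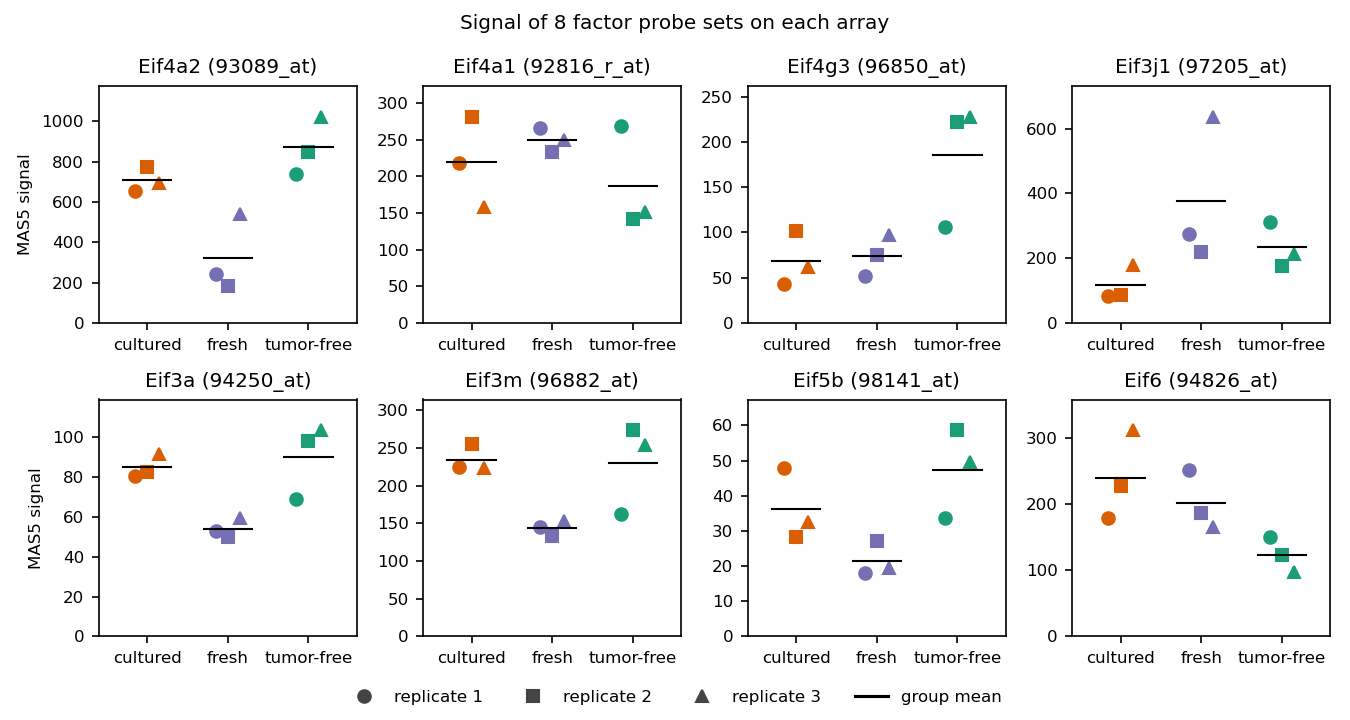
MAS5 signal (vertical, linear scale from 0) of 8 factor probe sets on each of the 9 arrays, by group, with the replicate number as the symbol and the group mean as a line. Eif4a2, Eif3a, Eif3m and Eif5b are lowest on the fresh arrays, Eif4g3 is highest on the tumor-free arrays and Eif3j1 lies below every fresh array on the cultured arrays, with cultured 3 at 179 within the tumor-free range.

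eIF3 is the large scaffold that keeps the small subunit ready for the mRNA. In fresh against tumor-free cells 9 of its 11 tested probe sets had a log2 fold change below 0 (median -0.16). In cultured against fresh cells 6 of 11 did (median -0.04), and in cultured against tumor-free cells 8 of 11 (median -0.09). Of the 50 factor probe sets 29, 21 and 29 were below 0 in these comparisons, and of all 8695 tested 4299, 4148 and 3982. None of the 11 passed the test. Eif3m had signals of 145, 134 and 153 in fresh cells, against 163, 273 and 254 in tumor-free cells (log2 fold change -0.62 ± 0.25 SE, limma adjusted p = 0.242). Its cultured signals of 224, 255 and 224 all lay above the fresh ones (0.67 ± 0.25, adjusted p = 0.196).

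Eif3a, the largest subunit, had the same order of groups. It read 52.8, 49.8 and 59.5 in fresh cells, against 68.8, 98.0 and 103 in tumor-free cells (log2 fold change -0.65 ± 0.25, limma adjusted p = 0.220). In cultured cells it read 80.6, 82.7 and 91.6, above every fresh array (0.59 ± 0.25, adjusted p = 0.265). In cultured against tumor-free cells Eif3m and Eif3a were at 0.06 and -0.06, with intervals from -0.49 to 0.61 and from -0.61 to 0.49. A change beyond 2-fold thus lay outside both intervals.

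Eif3j1, a loosely bound subunit, had the lowest log2 fold change of the factors in cultured against fresh cells. Its signal was 83.1, 85.1 and 179 in cultured cells, against 274, 218 and 636 in fresh cells, a log2 fold change of -1.57 ± 0.43 (SE, limma adjusted p = 0.0825). The groups did not overlap, although cultured 3 and fresh 3 were each the highest of their group. Against the tumor-free signals of 312, 174 and 212 the cultured cells overlapped (log2 fold change -1.01 ± 0.43, adjusted p = 0.317). The difference between cultured and fresh cells was -1.91 without cultured 3 (adjusted p = 0.0367) and -1.57 when the class was blocked on (adjusted p = 0.0393). Within the high and low classes it was -1.46 and -1.78, and over the alternatives the adjusted p ran from 4.38e-07 to 0.449. Mouse has a near-identical copy, Eif3j2, which these probes may also detect.

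Other subunits went different ways. Eif3b read 211, 197 and 272 in cultured cells, against 341, 328 and 342 in fresh cells (log2 fold change -0.57 ± 0.24 SE, limma adjusted p = 0.251), without overlap. Its tumor-free signals of 245, 303 and 358 overlapped with both. Eif3c, of the same core, read 373, 374 and 483 in cultured cells, against 264, 244 and 299 in fresh cells (0.59 ± 0.30, adjusted p = 0.368), also without overlap and with the opposite sign. Eif3e had 2 tested probe sets that differed, one at -1.09 in cultured against tumor-free cells (adjusted p = 0.256), with signals of 12.8, 17.5 and 12.2 against 61.9, 45.9 and 19.2, and the other at -0.09. Fresh cells, at 29.6, 14.0 and 35.9 on the first, overlapped with both. Eif3l lay between -0.43 and -0.09, with overlapping groups. Eif3k and Eif3d lay within 0.37 of 0 in all 3 comparisons.

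eIF2 carries the initiator tRNA, and eIF2B is the exchange factor that the integrated stress response blocks. Their 11 tested probe sets had medians of -0.03 in fresh against tumor-free, 0.17 in cultured against fresh and 0.15 in cultured against tumor-free cells, with no call. The eIF2 gamma subunit gene Eif2s3x read 699, 714 and 452 in cultured cells, 711, 814 and 695 in fresh cells and 667, 825 and 689 in tumor-free cells. Its log2 fold change in fresh against tumor-free cells was 0.03, with an interval of -0.52 to 0.58. Cultured 3 was the lowest of the 9 arrays for this gene.

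Eif2b5, which encodes the catalytic subunit of eIF2B, read 63.4, 67.9 and 41.0 in cultured cells, against 22.0, 27.0 and 32.5 in fresh cells (log2 fold change 0.88 ± 0.29 SE, limma adjusted p = 0.142), without overlap. Tumor-free cells read 41.0, 44.1 and 35.4, above every fresh array. Its other probe set gave 0.24 with overlapping groups. Eif2b1, a regulatory subunit, read 54.7, 50.1 and 48.9 in cultured cells, against 44.4, 21.8 and 39.0 in fresh cells, and the 2 groups likewise did not overlap (0.50, adjusted p = 0.438). Eif2b2 and Eif2b4 had overlapping groups in all 3 comparisons, with log2 fold changes between -0.40 and 0.55. So did all tested probe sets of Eif2s2, which encodes the beta subunit of eIF2, and of Eif2a and Eif2d, which encode other initiator tRNA-binding factors, with log2 fold changes between -0.29 and 0.51. Groups that do not overlap were found for 10 of the 50 factor probe sets in this comparison (7 higher and 3 lower), against 22.2% of all tested probe sets (13.4% higher and 8.81% lower).

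Of the factors of scanning, start-codon selection and subunit joining, Eif6, Eif5b and Eif1ax each had a probe set with an unadjusted p below 0.05 in at least 1 comparison. Eif6, whose product keeps free large subunits from joining too early, read 179, 228 and 312 in cultured cells and 252, 187 and 166 in fresh cells, against 151, 123 and 97.4 in tumor-free cells. Both tumor-bearing groups lay above all tumor-free arrays, with log2 fold changes of 0.89 ± 0.29 (SE, limma adjusted p = 0.184) for cultured and 0.67 ± 0.29 (adjusted p = 0.269) for fresh cells. The 2 differences share the tumor-free arrays. Eif5b, the GTPase of subunit joining, read 17.9, 27.2 and 19.6 in fresh cells, against 33.7, 58.6 and 49.5 in tumor-free cells (-0.89 ± 0.31, adjusted p = 0.186). Its cultured signals of 47.8, 28.3 and 32.6 lay above the fresh ones, and a further Eif5b probe set was at -0.51 in fresh against tumor-free cells with overlapping groups.

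Eif1ax and Eif1a encode forms of eIF1A. Eif1ax had 2 probe sets that disagreed after culture. One read 19.7, 12.4 and 19.0 in cultured cells, against 45.0, 35.5 and 29.6 in fresh cells (log2 fold change -0.84 ± 0.30 SE, adjusted p = 0.181), whereas the other, at 117, 133 and 127 in cultured cells, 97.7, 71.7 and 124 in fresh cells and 112, 84.7 and 84.6 in tumor-free cells, was at 0.36. On the first, tumor-free cells read 22.1, 22.1 and 25.7, between the cultured and the fresh arrays. One Eif1a probe set read 88.8, 127 and 129.5 in cultured cells and 163, 163 and 117 in fresh cells, against 192, 74.6 and 72.5 in tumor-free cells. Its counterpart read 17.4, 47.2 and 97.1 in cultured cells and 67.8, 87.8 and 86.6 in fresh cells, against 43.0, 63.8 and 55.0 in tumor-free cells. In cultured against fresh cells they were at -0.34 and -0.74 on the log2 scale, with overlapping groups. Eif5, the GTPase-activating factor of eIF2, read 239.8, 176 and 270.0 in cultured cells and 279, 249 and 469 in fresh cells, against 375, 228 and 183 in tumor-free cells. Eif5 and Eif1b, an eIF1 homolog, overlapped between groups throughout, with log2 fold changes between -0.49 and 0.34.

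None of the 6 tested probe sets of elongation factor genes had an unadjusted p below 0.05 in any comparison. Eef1a1 read 7227, 6004 and 5282 in cultured cells, 5949, 5238 and 5413 in fresh cells and 6903, 7275 and 6526 in tumor-free cells. Fresh cells lay below every tumor-free array, with a log2 fold change of -0.32 ± 0.27 (SE, limma adjusted p = 0.567) and an interval of -0.92 to 0.28. Non-overlapping groups were found in fresh against tumor-free cells for 14 of 50 factor probe sets (4 higher and 10 lower), or 28%, against 22.4% of all tested (9.34% higher and 13.1% lower). Eef2 read 1162, 1105 and 636 in cultured cells, 1241, 1188 and 1015 in fresh cells and 957, 1122 and 1039 in tumor-free cells. Its log2 fold changes of 0.14, -0.29 and -0.15 in the 3 comparisons had intervals within 1 of 0, and cultured 3 was its lowest array.

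The eEF1B subunit gene Eef1d read 147, 153 and 129 in fresh cells, against 221, 199.6 and 190.1 in tumor-free cells, without overlap (log2 fold change -0.49, 95% interval -1.05 to 0.08). Eef1a2, the paralog of Eef1a1 known from muscle and neurons, read 91.9, 77.3 and 70.8 in cultured cells, 114, 74.4 and 34.8 in fresh cells and 35.1, 64.5 and 59.8 in tumor-free cells. Its log2 fold change in cultured against tumor-free cells was 0.56 (95% interval -0.29 to 1.40), also without overlap. In cultured against tumor-free cells 7 of 50 factor probe sets did not overlap (4 higher and 3 lower), against 18.5% of all tested (10.3% higher and 8.2% lower). Eef1b2, on a probe set with the suffix _r_at, varied most within groups, from 8.48 to 75.2 among the fresh arrays alone. Its log2 fold change was 1.11 (95% interval -0.32 to 2.53) in cultured against fresh cells. In cultured against tumor-free cells it was 1.02 (-0.41 to 2.44), the highest of the factors there, and in fresh against tumor-free cells -0.09. The groups overlapped throughout. The other Eef1b2 probe set, at 6.04 to 28.4 over all arrays, was too dim to be tested. Eif5a, which helps the ribosome through difficult peptide bonds, was dim at 7.18 to 38.5 over all arrays. Eef1akmt1, a methyltransferase gene of eEF1A that the rule includes, lay between -0.56 and 0.52.

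The 12 probe sets left out of the tests had signals between 0.28 and 39.2, and 5 genes (Eef1g, Eef2k, Eif2s3y, Eif4enif1 and Eif4h) had no other probe set. Eif2s3y lies on the Y chromosome, which these female mice lack, and its probe set read 10.1, 6.52 and 2.23 in cultured cells, 1.77, 10.3 and 3.29 in fresh cells and 2.35, 0.28 and 14.3 in tumor-free cells. Eef2k, the kinase that inhibits eEF2, read 12.3, 7.49 and 5.81 in cultured cells and 8.8, 11.4 and 5.31 in fresh cells, against 29.6, 29.0 and 39.2 in tumor-free cells. No tumor-bearing array reached the lowest tumor-free one. In a fit without the filter the limma adjusted p was 0.0622 for fresh and 0.0793 for cultured against tumor-free cells. The cultured and fresh values of Eef2k lay within the range of the Eif2s3y probe set, so neither a level nor a fold change is given there. Eif4enif1, which encodes the eIF4E transporter, read 3.47, 3.19 and 3.36 in cultured cells, against 25.2, 21.1 and 17.4 in fresh cells, while its tumor-free values of 20.5, 2.93 and 17.6 spanned both. The cultured values lay below the offset and within the range of the Eif2s3y probe set, so no fold change is given. For Eif4enif1 the fit without the filter gave a limma adjusted p of 0.0920 in cultured against fresh cells. In cultured against tumor-free cells it gave 0.389.

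Other genes of the pathway were followed as lists, with each gene represented by its brightest tested probe set. Of 30 tested ribosomal protein genes 0 were called in fresh against tumor-free cells (median log2 fold change -0.29). In cultured against fresh cells 1 was called, as lower (median 0.05), against 2.69% of all tested probe sets. In cultured against tumor-free cells 0 were called (median -0.17). At an unadjusted p below 0.05 there were 4, 1 and 2 of the 30, against 16.7%, 16.3% and 14.1% of all tested probe sets. The one called was Rps13, with signals of 26.2, 14.5 and 13.4 in cultured cells, against 68.5, 61.8 and 97.2 in fresh cells (log2 fold change -1.70 ± 0.33 SE, limma adjusted p = 0.0209). Like that of Eif4a1, the Rps13 probe set bears the suffix _r_at. The call was lost without any 1 of the 3 fresh arrays or cultured 2 (adjusted p up to 0.101), within the high spike-in class (0.0515) and with the close pair of each group averaged into 1 array (0.215). Of 21 tested aminoacyl-tRNA synthetase and partner genes none was called in any comparison (4, 2 and 2 unadjusted, medians -0.25, 0.13 and -0.01). The shares of all tested probe sets to set beside these unadjusted counts are the same 16.7%, 16.3% and 14.1%.

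Of 11 tested genes of the integrated stress response and the eIF2 kinases 1 was called, the transcription factor gene Atf3, which fell to 612, 511 and 369 in fresh cells, against 1538, 1521 and 1043 in tumor-free cells (log2 fold change -1.45 ± 0.29 SE, limma adjusted p = 0.0287). Its call was lost without tumor-free 2 or 3 or any 1 fresh array (adjusted p up to 0.149) and with the averaged arrays (0.349), and a further Atf3 probe set was at -1.08 (adjusted p = 0.103). In fresh against tumor-free cells 1.9% of all tested probe sets were called. The list medians were -0.16, -0.09 and -0.15 in the 3 comparisons. At an unadjusted p below 0.05 there were 1, 1 and 2 of the 11 genes, against 16.7%, 16.3% and 14.1% of all tested probe sets. Of 5 poly(A)-binding and eIF4 partner genes the helicase gene Ddx3x was called in cultured against tumor-free cells (1.23% of all tested probe sets). Its signals were 155, 116 and 296 against 539, 648 and 574 (-1.70 ± 0.35, limma adjusted p = 0.0486). At an unadjusted p below 0.05 this list held 1 gene in each comparison, against the same 16.7%, 16.3% and 14.1%. The Ddx3x call was lost under 6 other settings, with adjusted p from 0.0536 (a smaller offset) to 0.710 (averaged arrays), and likewise without tumor-free 2 or 3, fresh 1 or 2 or cultured 1 or 2 (adjusted p up to 0.200), and its 2 further probe sets were at 0.32 and -0.06. No gene was called among 4 release and recycling factors, 4 mitochondrial translation factors, 16 ribosome biogenesis genes and 11 growth signalling genes. At an unadjusted p below 0.05 these lists held 0, 0, 2 and 2 genes in fresh against tumor-free cells (16.7% of all tested probe sets), 1, 0, 3 and 2 in cultured against fresh cells (16.3%) and 0, 0, 3 and 3 in cultured against tumor-free cells (14.1%).

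Some lists of cell type markers differed between these groups, and others did not. The summed signal of 9 macrophage markers was 3554 to 4403 in cultured cells and 2015 to 2208 in fresh cells, against 4298 to 13711 in tumor-free cells. The sum was thus lowest in fresh cells. Of these 9 genes 4 were lower in fresh than in tumor-free cells. In cultured against fresh cells 1 was called higher and 1 lower. In cultured against tumor-free cells 4 of the 9 were called lower. The sum of 7 exocrine pancreas markers was 6196 to 10569 in fresh cells, against 513.5 to 783 in tumor-free and 517 to 909 in cultured cells. Of these 7 genes 6 were called between fresh cells and each other group. Over all tested probe sets 1.9% were called in fresh against tumor-free, 2.69% in cultured against fresh and 1.23% in cultured against tumor-free cells. The sum of 12 neutrophil markers was 15959 to 42613 in cultured, 45495 to 55827 in fresh and 31783 to 47744 in tumor-free cells. Of these 12 genes none was called higher in any comparison, while 2 were lower in fresh than in tumor-free cells, 1 in cultured than in fresh cells and 2 in cultured than in tumor-free cells. The erythroid sum was 889 to 7074 in cultured, 4960 to 6468 in fresh and 659 to 2381 in tumor-free cells, and the B cell sum 479 to 2043, 1237 to 1469 and 228 to 3193, with no call in either list. In these 5 lists no measured gene was below the offset of 7.83 on all arrays. Lists of general myeloid, T cell, NK and platelet markers, with 6, 3, 4 and 1 genes tested, had no call in any comparison. The part of these cell types in the differences of the factor genes was not tested. In such mixed samples fewer cells of a type and less RNA per cell cannot be told apart.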

How the data were processed

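RNA of sorted CD11b+ cells was hybridized to 9 1-color Affymetrix MG-U74Av2 arrays. The deposited file holds intensity values on a linear scale, made with MAS5 per the submitters' processing notes. The sources used here do not give its version or settings. The 2% trimmed means of the arrays lay between 100.06 and 100.08, so they had been scaled before deposit. No detection calls were used. Precision is limited by the number of arrays.

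An offset of 7.83 (the 20th percentile of the signals) was added before log2. Leaving out 66 controls and then the dimmest 30% by mean kept 8695 of 12488 probe sets. In limma 3.58.1 under R 4.3.3, a single model of 3 group means took in the 9 arrays, with an intensity trend, 6 residual degrees of freedom, two-sided tests and Benjamini-Hochberg adjustment over all 8695. The fit was tested on simulated data with known changes in the fresh group. Gene names come from the platform annotation, which gave 1 symbol for 10855 probe sets, several for 396, and did not list 1237. Of the 10855, 10839 matched RefSeq (GRCm38.p6) by gene ID, with 0 symbols changed. The factor whose probe set carries several symbols (1 probe set) was left out.

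Members and lists were chosen with earlier results of these data known. Values on every array are given for factor probe sets called in any comparison (none was), the 3 largest rises and falls per comparison at an unadjusted p below 0.05, and paralog pairs of which both members were measured. Other factors, among them Eif3a, Eif3m, Eif4ebp2, Eef2k, Eif4enif1, Eif3c, Eif2b1 and Eef1d, were singled out after their values were seen. The spike-in class was defined from the arrays' mean log2 signal of the bacterial controls. Alternatives covered normalization, offset, filter, variance model, array weights, replicate number, spike-in class and left-out arrays.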

Additional observations from a re-analysis of the deposited data

How the results depend on the processing

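Over 24 alternatives the median change of the factor probe sets ran from -0.19 to -0.04 in fresh against tumor-free, 0.00 to 0.18 in cultured against fresh and -0.13 to 0.11, across 0, in cultured against tumor-free cells. The causes of the following differences were not tested. In fresh against tumor-free cells 1 factor probe set, Eif4a2, was called with quantile normalization, with the replicate block, when blocking on the spike-in class and in the high class alone, 17 with array weights and 11 within the low class. Cultured against fresh cells had 1 call with the replicate block (Eif3j1), 2 when blocking on the class (Eif3j1 and Eif4a2), 4 in the high class, 2 in the low class and 10 with array weights. Cultured against tumor-free cells had 1 and 6 calls within the classes and 8 with array weights. Leaving out 1 array gave 0 to 2 calls in each comparison, named beside the genes. Averaging the close pair of each group gave 0 factor calls in each.

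Of all 8695 probe sets 165, 234 and 107 were called in the 3 comparisons, in the order above. The counts were 3174, 1902 and 1389 with array weights, 277, 556 and 177 when blocking on the class, 411, 1049 and 444 in the high class alone, 1967, 1393 and 1725 in the low class alone and 23, 21 and 0 with the close pairs averaged. Leaving out 1 array gave 63 to 623, 74 to 489 and 24 to 529. With only the 6 arrays compared the third count was 14. Within-class fits rest on few arrays per group, and take a lone array's spread from the other groups.

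Same-numbered arrays did not deviate together in all pairs (r from -0.20 to 0.259). With so few arrays per group, these correlations cannot show whether arrays with the same number belong together. The main fit did not pair them. With the replicate block 200, 258 and 144 probe sets were called. Among 19 differences with an unadjusted p below 0.05, 451 of 453 recomputed values kept their direction. The exceptions were Eif4b (-0.31 within the low class) and Eif4ebp2 in cultured against tumor-free cells (0.14 within the high class). Signals near the offset of 7.83 have little meaning as levels.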
